A study of Mus musculus with 25 samples.

Results

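Skin of postnatal day 6 was compared with skin of postnatal day 1 on 6 of the study's 25 arrays, 3 titled for each age, and over 12422 of the 12488 probe sets, those that are not array controls. Each array held total RNA of whole mouse back skin, and each is labelled as a separate mouse. The series follows back skin through the hair cycle at 8 ages. Its arrays of days 14 and 23 (3 each) serve below for comparison, as ages when hair grows (day 14) and rests (day 23). The labels used here state no strain, sex, genotype or treatment, so both groups are described by age alone. Whole skin holds epidermis, follicles, dermis, fat, vessels, nerves and the thin muscle under the skin. In such bulk RNA, fewer cells of a type and less RNA per cell cannot be told apart.

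A hair follicle grows down from the epidermis around birth, and its matrix cells, which surround a dermal papilla, then divide and move up to build the hair. They form a central shaft, made of hair keratins bundled by keratin-associated proteins, and around it an inner root sheath with its own keratins and trichohyalin. Wnt, hedgehog and BMP signals pass between papilla and matrix, and transcription factors such as Foxn1, Msx2, Dlx3 and Lef1 act in the matrix and the shaft.

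Of 7880 probe sets that passed a filter on low values, 1291 (16.4%) were higher and 1960 (24.9%) lower on day 6, which is 41.3% in either direction (limma, adjusted p under 0.05). Counted as genes, 1059 of 5991 (17.7%) were higher and 1418 (23.7%) lower, with a median change of -0.10 on the log2 scale. The split by direction depends on the scaling: with arrays centred on their medians 2362 probe sets were higher and 897 lower, and with quantile normalisation 1328 and 1464. Calls of at least 4-fold were fewer, 75 higher (0.952%) and 99 lower (1.26%). Pairs of arrays of the same age correlated at 0.958 to 0.97 (Pearson, log2 values across probe sets) and arrays of different ages at 0.853 to 0.874. The array median was 249.95 to 252 intensity units on day 1 and 191.4 to 213.35 on day 6, and the highest intensity 26687.7 to 36049 against 41699.8 to 54022.2. All 9 probe sets for the bacterial control transcripts added at hybridisation were lower on day 6, by a median log2 change of -0.66. The ratio of 3' to 5' signal, which rises with RNA degradation, went from 0.85 to 1.03 for Gapdh and from 1.96 to 4.16 for Pcx. The part of these array differences in the results below was not tested. Gene lists are counted over members that passed the filter, more than 128.3 units on at least 3 of the 6 arrays. A gene under that value in every mouse of 1 age passed through the other age alone, so its groups could not overlap. This holds, among others, for Krtap9-1, Krtap19-5, Krtap6-3, Krtap12-1, Krt83, Crym, Klk6, H2-Aa, Myh3, Rptn, Tnnc1 and Tpsab1. For such genes, groups that lie apart are no separate support. In the lists of hair keratins, keratin-associated proteins, the inner root sheath, the hedgehog pathway, mast cells, macrophages, muscle and fetal growth, the side with more calls was the same under quantile normalisation and under centring of the arrays on their medians. Every list count for day 6 against day 1 is to be read against the shares of all genes, 17.7% higher and 23.7% lower. Changes are given as log2 differences ± SE from 3 arrays per age, with limma's Benjamini-Hochberg adjusted p.

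**Figure D1:**
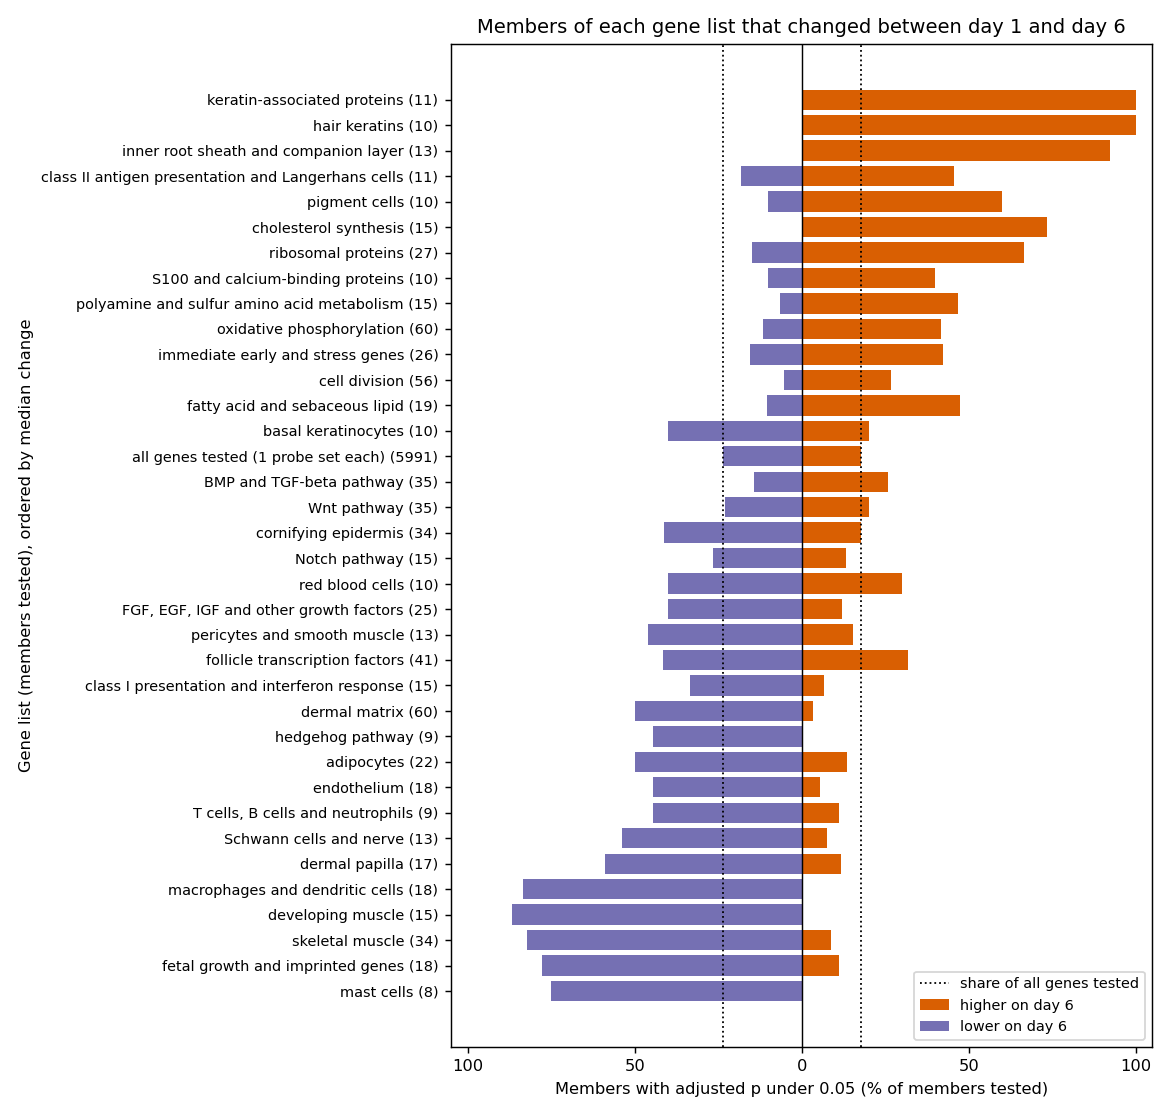
Share of the tested members of each gene list that were lower (left, purple) or higher (right, orange) on day 6, with lists ordered by the median change and dotted lines at the share of all 5991 genes tested. Hair shaft lists reach 100% higher, and lists of muscle, mast cells, macrophages and fetal growth genes lie on the lower side.

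Genes of the hair shaft changed most. Each of the 11 keratin-associated protein genes on the array rose, with a median change of 5.11, against 17.7% of all genes higher and an all-gene median of -0.10. Among them, Krtap9-1, Krtap19-5, Krtap6-3 and Krtap12-1 passed the filter through day 6 alone and could only lie higher on that day. Krtap9-1, a cysteine-rich protein that cross-links keratin filaments, read 64.9, 57 and 51.8 units in the 3 mice of day 1 and 19579.2, 13617.2 and 15915.3 in those of day 6. The gene rose by 8.13 ± 0.15 (adjusted p = 8.92e-10). Krtap6-2, of the family rich in glycine and tyrosine, read 151.5, 105.2 and 115.5 units on day 1 and 20666.4, 19040.4 and 15793.1 on day 6, a rise of 7.23 ± 0.15 (adjusted p = 1.83e-09). Krtap19-5 was under the floor of 32.9 units in all day 1 mice, at 3.7 to 6.8 units, and read 4553.1 to 5814.9 on day 6. Its rise of 7.34 is a lower bound for that reason, as are those of Krtap6-3 (5.40) and Krtap12-1 (4.91), whose day 1 mice were also all under the floor. Krtap14, Krtap8-1 and Krtap3-1 rose by 6.68, 5.11 and 4.96. In total, the intensities of the 11 probe sets summed to 3882.3 to 4371.2 units on day 1 and to 114912.1 to 138855.9 on day 6.

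All 10 hair keratin genes on the array rose as well, with a median change of 4.01. Krt83, a keratin of the shaft, was near the floor in each mouse of day 1 (41.3, 47.1 and 47.6 units) and read 11608.3, 11484.7 and 8575.2 on day 6. It rose by 7.85 ± 0.15 (adjusted p = 8.92e-10). Krt31, a hair keratin of the acidic type, was already measurable on day 1 at 402.4, 397.3 and 428.8 units and reached 17094.5, 17547 and 13107.5. For Krt31 no mouse of day 6 came near the day 1 range. Krt83 passed the filter through day 6 alone, so its groups could not overlap. Krt34 rose by 5.22 ± 0.15, Krt33b by 4.90 ± 0.13, Krt81 by 4.25 ± 0.18 and Krt86 by 3.78 ± 0.17. A second Krt33b probe set rose by 3.08 ± 0.15. Krt35, which marks the shaft's early matrix and cuticle cells, read 1057.4 to 1247.5 units on day 1 and rose less, by 2.69 ± 0.09 (adjusted p = 5.58e-08).

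**Figure D2:**
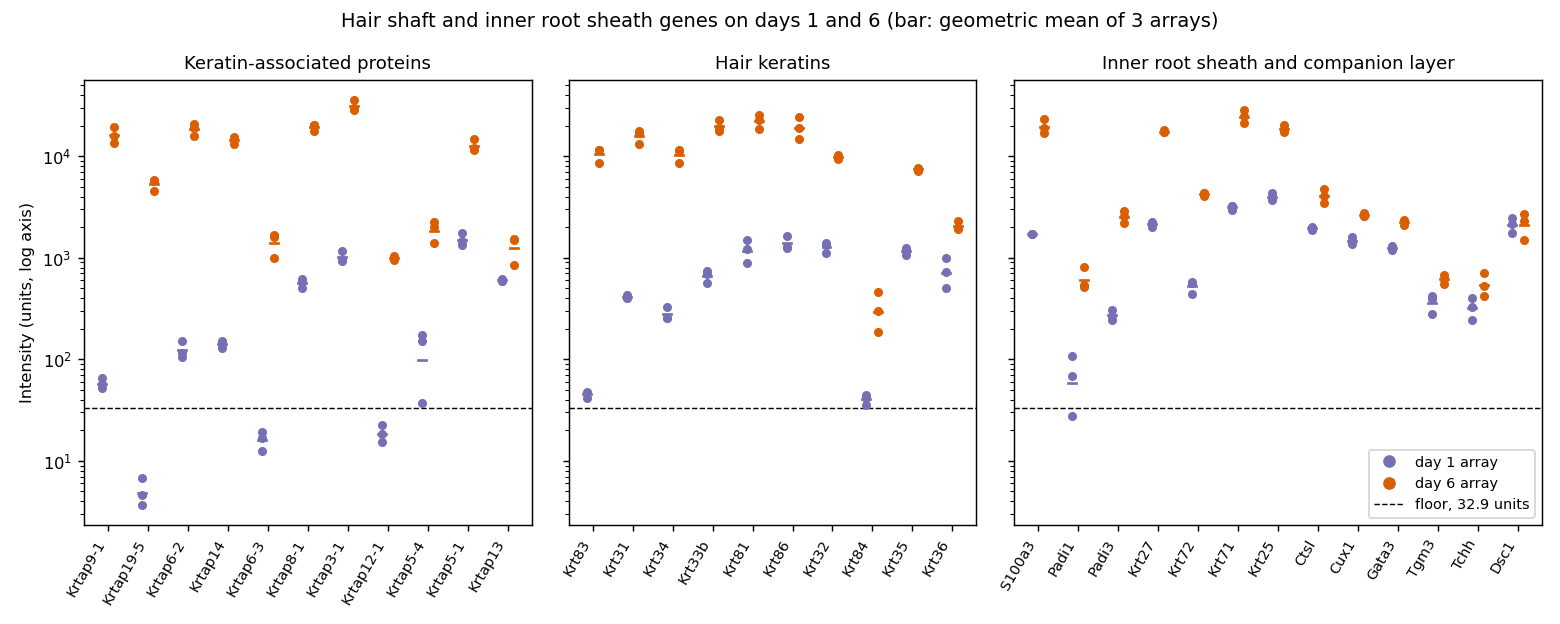
Intensity of every tested member of 3 lists on each of the 6 arrays (points; log axis), with the geometric mean per age (bars) and the floor of 32.9 units (dashed). Days 1 and 6 are apart for all keratin-associated proteins and hair keratins, and overlap for Dsc1 in the inner root sheath list. Members that passed the filter through day 6 alone could not overlap.

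The promoters of 4 hair keratins that rose together carry the same letters before their start. The 250 bases before the transcription start are printed for Krt31 (chr11:100050552-100050801), Krt32 (chr11:100088270-100088519), Krt33b (chr11:100029869-100030118) and Krt34 (chr11:100041555-100041804), all on the minus strand, and for Krtap6-2 (chr16:89420112-89420361, minus strand). Mybph (chr1:134193198-134193447, plus strand), a muscle gene described further on, stands beside them as a gene that fell. The sequences are those of RefSeq on GRCm38.p6, written 5′ to 3′ along the gene, and capitals mark 3 motifs searched on both strands. The core bound by Lef1 and TCF proteins was searched as CTTTGAA. The TATA box was searched as TATAAA, and the E-box form read by muscle regulators as CAGCTG, a palindrome. None of these overlaps another in the windows printed.
Krt31: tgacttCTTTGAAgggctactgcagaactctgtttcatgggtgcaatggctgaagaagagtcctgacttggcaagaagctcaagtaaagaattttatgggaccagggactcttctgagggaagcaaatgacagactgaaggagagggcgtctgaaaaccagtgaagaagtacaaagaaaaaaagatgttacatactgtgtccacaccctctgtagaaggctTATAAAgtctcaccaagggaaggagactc
Krt32: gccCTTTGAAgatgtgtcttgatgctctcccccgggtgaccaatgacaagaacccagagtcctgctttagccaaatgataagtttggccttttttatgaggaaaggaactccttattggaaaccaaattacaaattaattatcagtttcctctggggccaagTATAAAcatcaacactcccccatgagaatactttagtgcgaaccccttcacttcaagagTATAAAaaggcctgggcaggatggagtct
Krt33b: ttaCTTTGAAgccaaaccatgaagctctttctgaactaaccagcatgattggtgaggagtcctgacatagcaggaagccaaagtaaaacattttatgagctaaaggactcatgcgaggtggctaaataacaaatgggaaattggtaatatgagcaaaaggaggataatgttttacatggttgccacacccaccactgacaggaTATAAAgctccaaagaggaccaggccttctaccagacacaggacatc
Krt34: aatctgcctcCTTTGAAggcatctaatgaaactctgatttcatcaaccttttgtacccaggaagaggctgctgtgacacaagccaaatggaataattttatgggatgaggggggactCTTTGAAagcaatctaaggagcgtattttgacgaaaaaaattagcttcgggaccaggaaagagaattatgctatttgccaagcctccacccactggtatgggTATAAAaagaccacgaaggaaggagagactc
Krtap6-2: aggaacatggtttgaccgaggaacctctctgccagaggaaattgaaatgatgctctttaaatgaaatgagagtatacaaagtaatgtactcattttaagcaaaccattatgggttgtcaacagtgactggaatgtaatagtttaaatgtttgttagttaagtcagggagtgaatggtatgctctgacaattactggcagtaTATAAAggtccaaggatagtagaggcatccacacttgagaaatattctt
Mybph: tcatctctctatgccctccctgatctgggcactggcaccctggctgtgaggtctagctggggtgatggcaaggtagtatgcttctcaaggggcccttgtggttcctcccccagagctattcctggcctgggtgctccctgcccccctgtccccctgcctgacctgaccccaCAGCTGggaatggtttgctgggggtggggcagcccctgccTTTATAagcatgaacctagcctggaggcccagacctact
CTTTGAA was found in 4 of the 6 hair keratin promoters in the table (66.7%), those printed, and in 4.5% of 32851 mouse promoters of that length. It was in 1 of 9 promoters of keratin-associated proteins (11.1%) and in 1 of 15 of the inner root sheath list (6.7%), which also rose. Its first copy began at -244 in Krt31, -247 in Krt32 and Krt33b and -240 in Krt34, counted from the start site, and Krt34 had another at -133. TATAAA was present in 5 of the 6 hair keratin promoters (83.3%), in 7 of 9 of keratin-associated proteins (77.8%) and in 12.4% of all promoters. In Krt31 it began at -29 and in Krtap6-2 at -49. The reverse letters TTTATA are the capitals at -39 in Mybph. Of the 10 hair keratins tested, only 6 had a promoter in the table. The 4 printed lie close together on chr11, and their windows also share letters outside the motifs. They are therefore not independent cases, and a shared origin was not tested. A match of letters is a description and was not tested as a binding site.

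Among the 15 largest rises were 4 genes outside the hair lists. Gm10229 and Gm10228, gene models without a name of their own, rose by 6.60 ± 0.11 and 6.54 ± 0.22, and the gene table places both beside Krtap6-1, Krtap6-5 and Krtap22-2. Genes of this family can share probes with near copies, so these values are uncertain as to the gene. Crym, a thyroid hormone binding protein, rose by 5.57 ± 0.26 from 39.3, 52 and 89 units to 2876.4, 2741.3 and 2460.4. Klk6, a secreted serine protease, was at 28.4 to 48.9 units in the mice of day 1, 2 of them under the floor, and at 965.1 to 1639.1 on day 6. Its change of 5.05 is limited by the floor.

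Of the 13 listed inner root sheath genes 12 rose, with a median change of 2.24, and several of them already had high intensities on day 1. Krt25, a sheath keratin, read 3667.8, 3923.4 and 4297.8 units on day 1 and 20241.2, 18547.7 and 17365.6 on day 6, a rise of 2.24 ± 0.09 (adjusted p = 2.04e-07; 0.2 with the spread shared by 18 arrays up to 9 weeks). Its partners Krt71 and Krt27 rose by 2.97 ± 0.11 and 3.02 ± 0.08 from 2968.6 to 3235.3 and from 2030.7 to 2255.3 units. Padi3 and Padi1, enzymes that convert arginine to citrulline in sheath proteins, rose by 3.22 ± 0.14 and 3.29 ± 0.40. S100a3, a calcium-binding protein of the hair cuticle, went from 1717.5 to 1723.8 units up to 16945.2 to 23005.8 (3.50 ± 0.11). Tchh, which encodes trichohyalin, read 397.5, 330.3 and 243.5 units on day 1 and 524.4, 423.6 and 702.9 on day 6. These groups did not overlap but lay close, and the rise of 0.76 ± 0.23 (adjusted p = 0.0263) lost its call without mouse 2 (0.0539) or 3 (0.0833) of day 1 or mouse 1 (0.0596) or 3 (0.0812) of day 6, without the filter (0.121) and with 18 arrays (0.364). A second Tchh probe set rose by 1.22 ± 0.17 (adjusted p = 0.00067). Dsc1, an adhesion protein also found in the epidermis, was the member that missed the test (adjusted p = 0.997).

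Regulators of the follicle moved both ways, 13 higher and 17 lower of 41 tested (10 lower with arrays centred on medians), with a median of -0.35. Among those that rose, Foxn1, the factor missing in nude mice, read 84.4, 94.3 and 135.7 units on day 1 and 737.5, 591.1 and 561.5 on day 6, and rose by 2.61 ± 0.22 (adjusted p = 4.12e-05). Foxq1, needed for the inner core of the shaft, rose by 2.88 ± 0.41, Msx2 by 2.06 ± 0.15, Dlx3 by 1.35 ± 0.08 and Msx1 by 0.93 ± 0.14. Gata3, a factor of the inner root sheath, rose by 0.83 ± 0.09 and Lef1 by 0.51 ± 0.10, with its second probe set at 1.52 ± 0.15. Among those that fell, Tbx15, a factor of dorsal dermis, read 439.7, 461.9 and 367.9 units on day 1 and 61.3, 166 and 33 on day 6 (-2.60 ± 0.49, adjusted p = 0.00317). Hoxd9 fell by 2.01 ± 0.30, Zic1 by 1.65 ± 0.21, and Sox18, a factor of vessels and of dermal papillae, by 1.46 ± 0.10.

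In the hedgehog pathway the ligand and its readouts differed. Shh, the ligand made by the growing follicle, read 732.5, 626.6 and 614.9 units on day 1 and 607.6, 523.8 and 592.1 on day 6. The groups did not overlap, as was so for 33.0% of probe sets in this direction and 21.0% in the other, and the difference of -0.19 ± 0.13 missed the test (adjusted p = 0.249). Ptch1, at once the receptor and a target of the pathway, read 2345.8, 2629.6 and 1851.4 units on day 1 and 773.9, 773.2 and 801.6 on day 6. It fell by 1.52 ± 0.13 (adjusted p = 4.18e-05), and its second probe set by 0.79. Gli1, a transcription factor that is also a target, fell by 0.96 ± 0.14, its relative Gli2 by 0.95 ± 0.19 and the coreceptor Gas1 by 1.00 ± 0.11. Those 4 of the 9 tested members fell and none rose, against 23.7% and 17.7% of all genes. The counts were the same under quantile normalisation and under centring of the arrays. Smo, the signal transducer, was at -0.38 (adjusted p = 0.0557). The dermal papilla list, which holds Ptch1 and Gli1 too, had 10 of 17 members lower and 2 higher, with a median of -0.96.

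Of 35 Wnt pathway genes 7 rose and 8 fell, near the shares of all genes, with a median of -0.13 that is 0.17 with arrays centred on their medians. Without mouse 2 of day 1 these counts were 4 and 5. Wnt11 rose by 1.93 ± 0.34 and Wnt7b, a ligand of epidermis, fell by 2.03 ± 0.37. Of the secreted inhibitors, Sfrp4 and Sfrp2 fell by 1.31 ± 0.17 and 0.80 ± 0.14 and Sfrp1 rose by 0.85 ± 0.18. Ctnnb1, which encodes beta-catenin, did not pass the test (0.05 ± 0.08), and was called lower with quantile normalisation (-0.34, adjusted p = 0.00388) and higher with centred arrays (0.35, adjusted p = 0.0204).

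In the BMP and TGF-beta pathway 9 of 35 genes rose and 5 fell, with a median of -0.11, against 17.7% and 23.7% of all genes. With arrays centred on their medians 12 rose and 2 fell, and the median was 0.19. Id1 and Id2, immediate targets of BMP signals, rose by 0.96 ± 0.11 and 0.99 ± 0.16. The mice of day 1 read 805.4 to 975.7 units for Id1 against 1600.8 to 1768.6 on day 6. Smad6, a feedback inhibitor of the pathway, rose by 1.20 ± 0.20 and the ligand Bmp8a by 1.41 ± 0.24, while Bmp4 was at -0.20 (adjusted p = 0.248). Tgfb2 and Tgfb1, the growth factors, fell by 1.89 ± 0.41 and 1.16 ± 0.23. Elsewhere among signals, 2 of 15 Notch pathway genes rose and 4 fell, with a median of -0.26. Only 1 was called lower with quantile normalisation or with centred arrays. The receptor Notch1 was among those that rose, by 1.44 ± 0.10, but its second probe set, at 0.51, missed the test (adjusted p = 0.161). Igfbp3, which binds insulin-like growth factors, fell by 1.88 ± 0.15 and Igfbp2 rose by 1.30 ± 0.12. The receptor Fgfr1 and the ligand Pdgfa fell by 1.02 ± 0.10 and 0.97 ± 0.11.

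Of 10 pigment genes 6 rose and 1 fell, against 17.7% and 23.7% of all genes, with a median of 0.70. Only 3 were called higher without the filter, and none was called lower with quantile normalisation or with centred arrays. Melanocytes of the follicle make melanin only while the shaft grows. Tyrp1, an enzyme of melanin synthesis, read 294.5, 310.7 and 269.5 units on day 1 and 597.3, 1112.9 and 1007.1 on day 6, a rise of 1.59 ± 0.22 (adjusted p = 0.000593). Mouse 1 was the lowest of day 6, and the same mouse was lowest of its age for Oca2, Trpm1, Pmel and Dct. Pmel, the fibre protein of the pigment granule, rose by 1.10 ± 0.12, Trpm1 by 1.39 ± 0.18 and Oca2 by 1.34 ± 0.30.

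Cornification genes of the epidermis moved both ways: 6 of 34 rose and 14 fell, against 17.7% and 23.7% of all genes. With arrays centred on their medians these counts were 12 and 10. Krt10, a keratin of the suprabasal layers, read 21573.5, 15590.4 and 18578.9 units on day 1 and 22196, 20689.9 and 21413.3 on day 6, and its change of 0.22 ± 0.11 missed the test. Krt1 (-0.18) and Lor (0.09), a keratin and the main envelope protein of these layers, missed it too. With quantile normalisation Krt10, Lor and Krt1 were called lower (-0.27, -0.43 and -0.67), and with arrays centred on their medians Krt10 and Lor were called higher (0.52 and 0.39), so their direction depends on the scaling. Sprr1a, a cross-linked envelope protein, rose by 3.27 ± 0.09, from 2793 to 3399.6 units up to 27596.5 to 31672.4. Krt77, a keratin of the epidermis and of sweat ducts, rose by 2.87 ± 0.15, and Krt6a, found in the companion layer of the follicle and in stressed epidermis, by 1.75 ± 0.10. Krt16 and Krt6b, known from the same stressed epidermis, fell by 1.94 ± 0.24 and 1.70 ± 0.17. Rptn, which encodes repetin of the cornified envelope, read 523.6, 730.6 and 681.9 units on day 1 and 116.6, 78.6 and 68.8 on day 6 (-2.90 ± 0.24, adjusted p = 3.64e-05). The probe sets of the basal keratins Krt5, Krt14 and Krt15 were near or under the floor on all 6 arrays, at no more than 75.9, 38.4 and 10.9 units, so that the basal layer could not be checked by them.

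Lipid synthesis rose in part. Of 15 cholesterol synthesis genes 11 rose and none fell (median 0.69), against 17.7% and 23.7% of all genes. Those that rose include Msmo1 (1.26 ± 0.19), Fdps (1.20 ± 0.08), Sqle (1.05 ± 0.13) and Mvd (1.02 ± 0.14). Elovl6, which lengthens fatty acids, rose by 2.31 ± 0.12 from 510.4 to 568.7 units up to 2315.1 to 2985.7, and Apoe, a lipid carrier, by 1.85 ± 0.10. Fasn, the fatty acid synthase, was at 0.02 (adjusted p = 0.883). Adipocyte genes fell more often than they rose, 11 against 3 of 22, although 7 against 6 with arrays centred on their medians. Cidec, a lipid droplet protein, fell by 1.27 ± 0.13, the insulin-regulated glucose carrier Slc2a4 by 1.03 ± 0.18 and the fatty acid binding protein Fabp4 by 0.85 ± 0.16. Cebpa, a regulator of fat cells, was at 0.08 (adjusted p = 0.44), and was called lower with quantile normalisation (-0.37) and higher with centred arrays (0.38).

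Of 22 fetal growth genes on the array, many of them imprinted, 18 passed the filter, of which 14 fell and 2 rose, with a median of -1.23, against 23.7% of all genes lower and a median of -0.10. Plagl1, a transcription factor over a network of imprinted growth genes, read 1563.8, 1950.6 and 1842 units on day 1 and 284, 176.7 and 296.7 on day 6. The groups lay apart by more than any spread within them, and the gene fell by 2.85 ± 0.20 (adjusted p = 9.61e-06), its second probe set by 2.36. Dlk1, a membrane protein of immature cells, read 15760.4, 14864 and 17413 units and then 3662.8, 3606 and 3034.5, a fall of 2.22 ± 0.10 (adjusted p = 3.89e-07). The growth inhibitors Grb10 and Cdkn1c fell by 2.03 ± 0.29 and 1.76 ± 0.08, Mest by 1.91 ± 0.15 and the RNA-binding protein Igf2bp1 by 1.87 ± 0.27. Igf2, the growth factor itself, fell by 0.44 ± 0.13 (adjusted p = 0.0217). That call was lost without mouse 1 (0.0763) or 3 (0.075) of day 1 or mouse 2 (0.0761) or 3 (0.0577) of day 6, with arrays centred on their medians (0.426), without the filter (0.126) and without the intensity trend (0.0674).

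Most muscle genes fell, against 23.7% of all genes lower and 17.7% higher. The list of developing muscle (18 on the array) had 13 of 15 tested members lower and none higher (median -1.05), and that of skeletal muscle (41 on the array) 28 of 34 lower and 3 higher (median -1.14). Myh3, the embryonic myosin heavy chain, read 1478.1, 1448.2 and 1644.8 units on day 1 and 64.5, 78.6 and 92.9 on day 6. Among the named genes this was the largest fall measured above the floor at both ages, a change of -4.29 ± 0.17 (adjusted p = 2.04e-07). Actc1, the actin of heart and fetal muscle, fell by 2.16 ± 0.10, Myh8, the perinatal myosin, by 1.97 ± 0.09 and the myogenic factor Myf6 by 1.49 ± 0.27. A second Actc1 probe set read -3.68 ± 0.12. Tnnc1, the troponin C of slow and cardiac muscle, read 516.9, 579.1 and 722.5 units on day 1 and was under the floor in every mouse of day 6, so its change of -4.19 is a bound, at least 18.2-fold lower. Myh7, the slow myosin, fell by 2.87 ± 0.44, Mybph by 2.09 ± 0.14 and the calcium channels of muscle Ryr1 and Cacng1 by 1.89 ± 0.13 and 1.87 ± 0.20. The fast adult myosins did not follow: Myh1 was at -0.08 (adjusted p = 0.633) and Myh4 rose by 2.13 ± 0.33, from 63.2, 77.5 and 103 units to 440.2, 436.1 and 220.4. A second Myh4 probe set read -1.50, so the probe sets of that gene disagree. Summed over its tested members, the skeletal muscle list fell from 87657.2 to 106601.1 units to 49028 to 55853.2. CAGCTG was found in 17 of 32 promoters of skeletal muscle genes in the table (53.1%) and in 4271 of all 32851, and the one in Mybph began at -79.

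**Figure D3:**
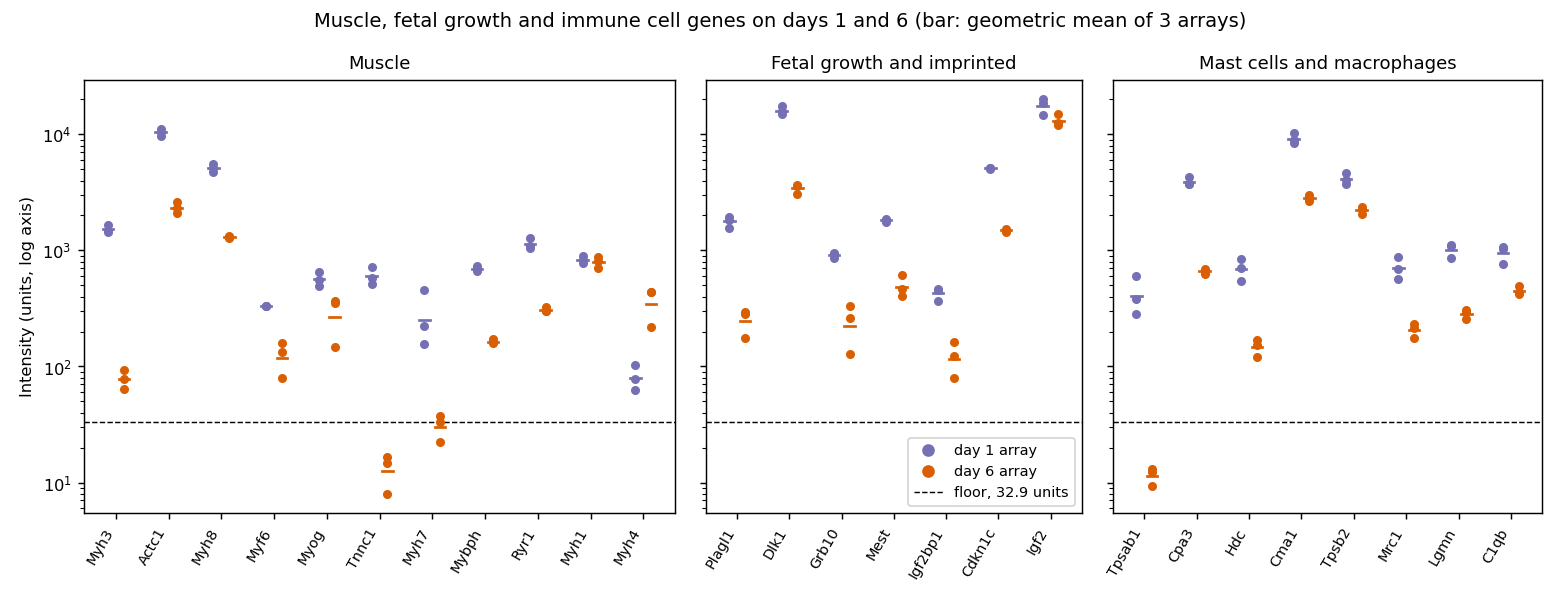
Intensity on each of the 6 arrays (points; log axis) of muscle, fetal growth and immune cell genes, with the geometric mean per age (bars) and the floor of 32.9 units (dashed). Day 6 lies below day 1 for each gene shown except Myh1, where the ages overlap, and Myh4, where day 6 is above.

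Dermal matrix, mast cell and macrophage genes were lower on day 6 more often than higher, against 23.7% and 17.7% of all genes. Of 60 matrix genes 30 fell and 2 rose (median -0.36, and -0.06 with arrays centred on their medians), with basement membrane and immature matrix genes among them: Nid1 fell by 1.56 ± 0.23, Lama2 by 1.27 ± 0.17, Vcan by 1.25 ± 0.14 and the cross-linking enzyme Lox by 1.21 ± 0.12. The fibrillar collagens Col1a1 and Col1a2 were at 0.08 and 0.17 and missed the test. They were called lower (-0.38 and -0.31) with quantile normalisation and higher (0.38 and 0.47) with arrays centred on their medians. For Col3a1, another fibrillar collagen, the brightest probe set was at -0.0 (adjusted p = 0.992). Its other probe sets were called lower, at -0.78 ± 0.08 and -0.66 ± 0.14, so the probe sets of that gene disagree. Of 8 mast cell genes tested (14 on the array) 6 fell and none rose (median -1.55). Cpa3, a protease of mast cell granules, read 3698.3, 4292.6 and 3731.5 units on day 1 and 629, 662.8 and 692.9 on day 6 (-2.56 ± 0.10, adjusted p = 1.5e-07). The tryptase Tpsab1 was under the floor in each mouse of day 6, against 282.2 to 605.8 units, which makes its change of -3.61 a bound. Hdc, which makes histamine, fell by 2.23 ± 0.21 and the chymase Cma1 by 1.70 ± 0.10. Of 18 macrophage and dendritic cell genes tested (27 on the array) 15 fell and none rose (median -0.99), including the lysosomal proteases Lgmn (-1.84 ± 0.15) and Ctss (-1.17 ± 0.17), the receptor Mrc1 (-1.76 ± 0.19) and the complement gene C1qb (-1.07 ± 0.15). The receptor Csf1r was at -0.25 (adjusted p = 0.0905).

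The list of MHC class II antigen presentation and Langerhans cells (17 on the array) leaned the other way. Of its 11 tested genes 5 were higher and 2 lower, against 17.7% and 23.7% of all genes, and 4 were not called. H2-Aa, a class II chain, read 68.2, 64.5 and 53.3 units on day 1 and 704.3, 644.3 and 521.5 on day 6, a rise of 3.33 ± 0.22 (adjusted p = 6.33e-06). Cd74, the invariant chain, and H2-Ab1 rose by 1.22 ± 0.12 and 0.99 ± 0.16. Cd86, a costimulatory protein, fell by 2.29 ± 0.40 from 128.5 to 228.7 units to at most 36.2, and was not called with a floor at the 40th percentile (adjusted p = 0.167). Genes of red blood cells were mixed, 3 higher and 4 lower of 10: Slc4a1, the anion exchanger, rose by 1.84 ± 0.35 and Bpgm by 1.15 ± 0.16, and Hba-a1, an alpha-globin, fell by 0.91 ± 0.17. The 4 lower calls were only 1 without mouse 3 of day 1 and 2 without mouse 1 or 2 of day 1 or mouse 1 of day 6.

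In lists of growth and energy supply the counts depended on the scaling, where 17.7% of all genes were higher and 23.7% lower in the main fit. In cell division 15 of 56 rose and 3 fell, with a median of 0.10 (26 and 1 with arrays centred on their medians, 8 higher without mouse 3 of day 1). Cdc20, an activator of mitotic exit, rose by 0.96 ± 0.14, Tk1 by 1.11 ± 0.13 (its second probe set read 0.23) and E2f1 fell by 2.14 ± 0.36, while Top2a (-0.07) and Pcna (0.31; 0.61 and called with centred arrays) missed the test. Of 27 ribosomal protein genes 18 rose and 4 fell, but with quantile normalisation 5 and 3, and their median went from 0.49 to 0.05. The 4 lower calls were 2 without mouse 1 or mouse 3 of day 1. Rps10, a protein of the small subunit, read 10058.7 to 11350.6 units on day 1 and 19654.5 to 20269.4 on day 6, and arrays of day 6 had the higher top intensities, as given above. Of 60 genes of oxidative phosphorylation 25 rose and 7 fell (13 and 9 with quantile normalisation, 15 higher without mouse 3 of day 1 and 16 without mouse 2 of day 6, 4 lower without mouse 2 of day 1 or mouse 1 of day 6), with Atp5e at 1.67 ± 0.12 and Cox7b at -0.83 ± 0.09. The metal-binding metallothioneins Mt2 and Mt1 rose by 1.36 ± 0.07 and 1.00 ± 0.15, and the phosphatase Dusp1 fell by 1.10 ± 0.12. Arg1, which makes ornithine for polyamines, rose by 1.89 ± 0.22, the polyamine enzyme Sat1 by 1.32 ± 0.10, and Gclc, which starts glutathione synthesis, by 1.08 ± 0.12.

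Further large falls came from genes in no list. Srpk3, a muscle kinase, fell by 3.09 ± 0.40, Ptgis, which makes prostacyclin, by 2.91 ± 0.39, Mrc2, a collagen receptor of fibroblasts, by 2.65 ± 0.41 and Tfr2, a transferrin receptor, by 2.58 ± 0.34. On day 6, 2 of the 3 mice were under the floor for Ptgis and for Tfr2 and 1 for Mrc2, so the floor limits these values, as it does those of Cd86 (2 mice) and Myh7 (1 mouse) on day 6 and of Padi1 (1 mouse) on day 1. For Kcnj9, a potassium channel, and Apobec2, a muscle protein, the probe sets with changes of -3.13 and -2.89 stood beside others of the same genes at 0.04 and -0.34.

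The changes from day 1 to day 6 were next set against those between day 23, when hair rests, and day 14, when it grows, in 1 fit of 12 arrays with 8395 probe sets. No array is shared between these differences. Days 1 and 23 are, however, both among the arrays with lower top intensities and days 6 and 14 among those with higher ones, so that array difference runs in the same direction in both. Day 14 against day 23 called 54.6% of probe sets, 24.7% higher and 29.9% lower. Of the 1120 genes higher on day 6 than on day 1, 763 were also higher on day 14 than on day 23, which is 68.1% of the first list and 47.3% of the 1612 in the second, against 25.6% of all 6289 genes. Of the 1536 genes lower on day 6, 909 were lower on day 14 (59.2% of the first list, 46.4% of the 1957 in the second, against 31.1% of all genes). The sizes differed for many: the difference between the changes was called for 2462 probe sets (29.3%), 1123 more positive from day 1 to day 6 (13.4%) and 1339 less (15.9%).

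Follicle genes were the main case of unequal size. Krt25 was at a median of 31.2 units on day 23, under the floor, and its change from day 23 to day 14 was 9.70, larger than that from day 1 to day 6 (difference -7.46 ± 0.12, adjusted p = 4.16e-14). For Krt35 the changes were 8.28 and 2.69, for Krt71 7.51 and 2.97, for Tchh 5.15 and 0.76, and for Msx2 5.81 and 2.06, all with called differences. For Krtap6-2, above the floor at all these ages by its medians, the changes were 8.16 and 7.23, and the difference of -0.93 ± 0.37 missed the test (adjusted p = 0.0714). Over the lists, the difference was called lower for 11 of 13 inner root sheath genes (median -3.17), 10 of 10 hair keratins (median -2.30) and 7 of 11 keratin-associated proteins (median -1.52), where Krtap6-3 was the 1 called higher. Where the day 23 values alone are at the floor, these differences are bounds. Krtap19-5, Krtap6-3 and Krtap12-1 were under the floor on day 1 and, by their medians, on day 23, so their differences only set day 6 against day 14 and bound nothing. In the hedgehog pathway a readout and the ligand differed as well. The readout Ptch1 changed by -1.52 from day 1 to day 6 and by 0.34 from day 23 to day 14 (difference -1.87 ± 0.18, adjusted p = 1.1e-05). The ligand Shh changed by -0.19 and 2.05 (difference -2.24 ± 0.48, adjusted p = 0.00396).

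**Figure D4:**
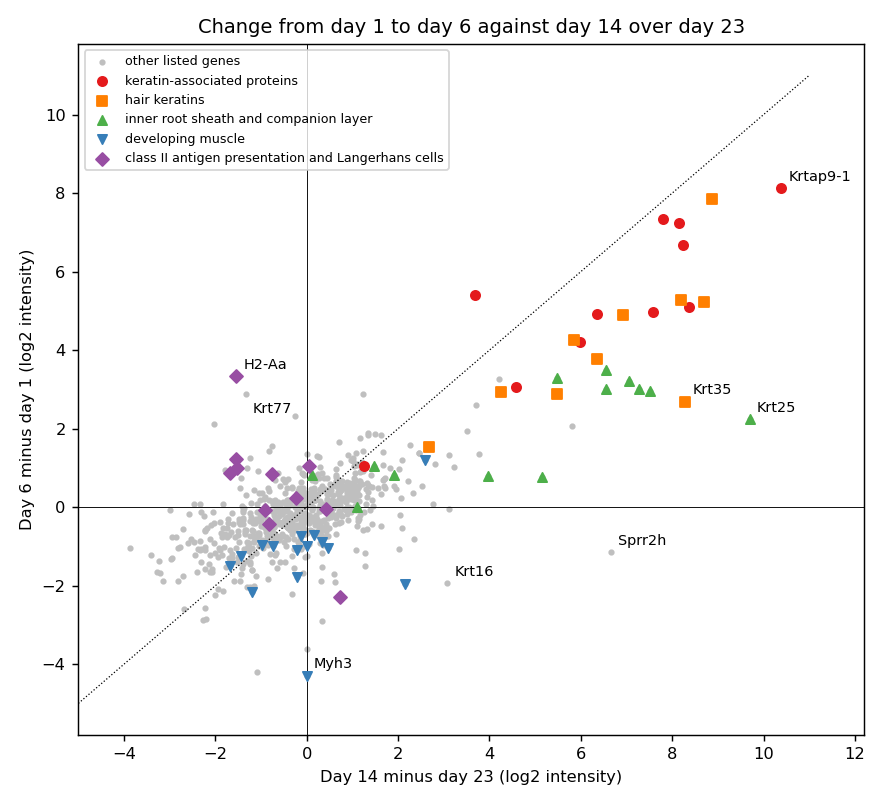
Change from day 1 to day 6 (vertical) against day 14 minus day 23 (horizontal), both in log2 intensity, for the listed genes tested in both fits, with equal change on the dotted line. Of the 3 lists of hair and sheath structure, keratin-associated proteins have the median nearest to that line (a difference of -1.52), inner root sheath genes such as Krt25 lie far under it, and H2-Aa, Krt77, Krt16 and Sprr2h fall in the quadrants of opposite change.

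Muscle, fetal growth and class II genes were followed over all 8 ages. Myh3 was under the floor at a median of 7.9 units on day 14 and 2.9 on day 23, and its change between them is 0 at the floor. Its called difference of -4.29 ± 0.34 therefore only repeats the change from day 1 to day 6. The median of Dlk1 was 15760.4 units on day 1, 3606 on day 6 and 426 to 696 at the 6 later ages. H2-Aa rose from a median of 64.5 units on day 1 and 644.3 on day 6 to 1196.8, 2067.2 and 3414.7 on days 14, 17 and 23 and 6454.9 at 9 weeks. Krt77 went the same way, from 156.3 and 1092.2 to 12515.9 on day 23. Adipocyte genes had a median change of -0.52 from day 1 to day 6 and of -1.86 from day 23 to day 14. Of their 23 differences 15 were called higher and 2 lower, against 911 and 963 of all 6289 genes. By these medians, a higher difference stands for a smaller fall and not for a rise.

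**Figure D5:**
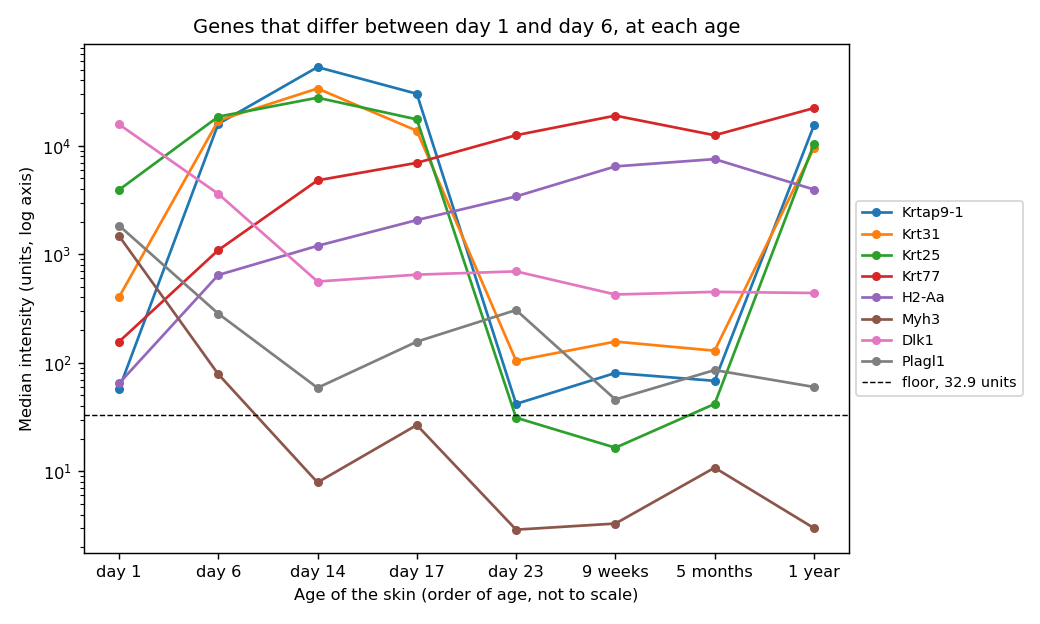
Median intensity of 8 genes at each of the 8 ages (log axis; 3 arrays per age, 4 at 1 year), in order of age. Krtap9-1, Krt31 and Krt25 are high on days 6, 14 and 17 and low on day 23. At 1 year Krtap9-1 and Krt31 are high again. Krt77 and H2-Aa climb with age up to 9 weeks, and Myh3 and Dlk1 are highest on day 1.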

How the data were processed

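Back skin RNA was hybridised to oligonucleotide arrays, 1 per labelled mouse. The deposited values are linear intensities that the authors had scaled: the mean without the lowest and highest 2% was 500.23 to 500.32 on these 6 arrays, as the values show. The sources used here do not name the software. Intensities under 32.9 units (the table's 20th percentile) were set to that floor and taken to log2, and probe sets above 128.3 units (40th percentile) on at least 3 of the 6 arrays were kept. A probe set that passed through 1 age alone had to differ. Linear models with an intensity trend came from limma 3.58.1 (R 4.3.3), on 6 arrays or, with days 14 and 23, on 12, with Benjamini-Hochberg adjustment at 0.05. In simulated data of 7880 probe sets, 74% of log2 changes of 1 and 98% of 2 were recovered on 6 arrays. For the difference between the changes on 12 arrays the shares were 42% and 88%. Few probe sets were changed in the simulation and no floor was applied to it, so recovery in the real data can differ. The platform annotation gave 10833 probe sets 1 symbol (10817 matched to the gene table) and 396 several, and left 1193 unnamed here. A gene was read from its brightest probe set.

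The 35 gene lists, the comparison and the naming rule were chosen with earlier results of these data known. Named were the 15 largest called rises and falls without overlap, up to 6 called and 3 other members per list, a set of key genes, and the 10 largest called differences each way between the pairs of ages. Deviations of like-numbered mice correlated at -0.0546, 0.135 and -0.0315, so numbers did not pair the arrays. Xist, a female marker, and Eif2s3y, a male one, were both above the floor on all these arrays but that of mouse 2 of day 1. The labels do not say whether mice were pooled, so p-values measure the spread between these arrays, whose number limits the precision.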

Additional observations from a re-analysis of the deposited data

Results flagged for a closer look

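Some genes changed in opposite directions, both called, from day 1 to day 6 and from day 23 to day 14, and the difference between the changes passed limma's test. Day 14 comes before day 23, so the second change runs against age, and a gene that climbs steadily with age shows opposite signs. The medians of H2-Aa, Krt77 and Myh4 climbed in this way at each age from day 1 to day 23. Genes higher on day 6 than on day 1 but lower on day 14 than on day 23 had positive differences. H2-Aa, a class II chain, differed by 4.87 ± 0.20 (3.33 against -1.54, adjusted p = 2.21e-09), Krt77 by 4.21 ± 0.14 (2.87 against -1.34, adjusted p = 1.94e-10) and the fast myosin Myh4 by 4.16 ± 0.35 (2.13 against -2.03, adjusted p = 2.71e-06). The carboxylesterase Ces1d differed by 4.20 ± 0.44, the epoxide hydrolase Ephx1 by 3.85 ± 0.45 and myoglobin, Mb, by 3.47 ± 0.47, all 3 at low levels on days 1 and 6. Genes lower on day 6 than on day 1 but higher on day 14 than on day 23 had negative differences. The envelope gene Sprr2h, at 1082.1 to 1401.8 units on day 1 and 459.8 to 592.2 on day 6, differed by -7.81 ± 0.43 (-1.15 against 6.66, adjusted p = 4.64e-08), and its relative Sprr2c-ps by -6.61 ± 0.37. Krt16 differed by -5.02 ± 0.34 (-1.94 against 3.08, adjusted p = 3.09e-07) and Kars, a lysyl-tRNA synthetase, by -4.33 ± 0.55.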

How the results depend on the processing

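Every alternative kept the number of called probe sets within 1.5 times of 3251 for day 6 against day 1 (2302 to 3106 with 1 mouse left out, 3153 with the mouse number as a block) and of 2462 for the difference between the changes (1988 to 2501 with 1 mouse left out, 2371 with the block). The block changed no call of the named genes, and mouse numbers did not pair the arrays. Centring arrays on their medians shifted the median of all probe sets from -0.132 to 0.168 and turned the split to 2362 higher and 897 lower (72.5% higher, against 39.7%, and 47.6% with quantile normalisation). All 1291 probe sets called higher were among those 2362, and the 897 among the 1960 called lower. For the difference between the changes, centring left 841 lower calls. With quantile normalisation, 6 named genes that had missed the test were called lower, against a change above zero: Ctnnb1 (-0.34), Krt10 (-0.27), Lor (-0.43), Cebpa (-0.37), Col1a1 (-0.38) and Col1a2 (-0.31). Centring called the same 6 higher, at 0.35, 0.52, 0.39, 0.38, 0.38 and 0.47. Of 134 called genes named here, 122 kept call and direction in each alternative in which they were tested. Besides those of Tchh, Igf2, Cd86 and Krt25 given above, lost calls were Gli1, Tgfb1 and Sprr2h with 18 arrays (adjusted p 0.0655, 0.0781 and 0.109), Oca2, Dct and Hba-a1 without the filter (0.0626, 0.0556 and 0.0517), and Myh4 and Tk1 with probe sets averaged (0.431 and 0.2). The causes were not tested. Genes near the floor are limited by signal over background.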
